A study of Mus musculus with 3 samples.

Results

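The genes described here are the nuclear-encoded subunits of the oxidative phosphorylation machinery, measured in the blood endothelial cells (EC) of mouse Peyer's patches (PP). Members were chosen by gene symbol, as symbols that start with Nduf and a letter of a, b, c, s or v and a digit, with Cox, a digit from 4 to 8 and a letter a, b or c, with Uqcr or Atp5, or that are Sdha to Sdhd, without Ndufa4l2 and without pseudogene symbols. This gave 81 entries of 31053 genes listed in every library. Of these, 35 belong to complex I, 4 to complex II, 8 to complex III, 17 to complex IV and 17 to complex V. Ndufa4 was counted in complex IV, where its protein resides, and Atp5o is listed under 2 gene identifiers.

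Transcripts of single PP EC were counted from their 3′ ends in droplets (10x Chromium) in 3 libraries, 1 control and 2 with induced overexpression of COUP-TFII (EC-iCOUPOE), a venous transcription factor encoded by Nr2f2. The control library is titled WT and its strain is C57BL/6, and the EC-iCOUPOE libraries, replicates 1 and 2, are from CDH5(PAC)CreERT2;COUP-TFIIOE/OE mice. All mice were 6 to 10 weeks old, and cells were isolated 14 to 19 days after tamoxifen, with males and females processed together. The Cre recombinase is driven by the promoter of Cdh5, a gene of endothelial junctions, so that recombination is directed to endothelium. The study describes its control cells as from tamoxifen-treated Cre- and WT mice, and the number of mice behind each library is not given in the sources used here. The study mentions cohorts from separate experiments without tying them to these libraries, so the spread between the EC-iCOUPOE libraries may be biological or technical.

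Oxidative phosphorylation is the process by which mitochondria make most of the ATP of many cells. Complexes I and II pass electrons from NADH and succinate to ubiquinone, complex III passes them to cytochrome c, complex IV reduces oxygen, and complex V (ATP synthase) uses the resulting proton gradient. A small set of subunits is encoded in mitochondrial DNA and all other subunits, including the whole of complex II, are encoded in the nucleus. Endothelium is known for its strong reliance on glycolysis, and high endothelial cells (HEC), the plump cells of the venules through which lymphocytes enter lymphoid tissue, are known for high biosynthetic activity.

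The control library held 17341398 unique molecular identifiers (UMIs, counted transcripts) over 6080 barcodes, EC-iCOUPOE replicate 1 held 17417260 over 4959, and replicate 2 held 3548983 over 1441. The control and replicate 2 shared 12 barcodes and no other pair shared any. Clusters were named from marker genes, with the members and other mitochondrial and ribosomal genes kept out of the clustering. Blood EC numbered 2456, 3371 and 975 cells in the control, replicate 1 and replicate 2. They fell into HEC-like, postcapillary venule-like (PCV), arterial-like, capillary-like and capillary resident progenitor-like (CRP) cells, written without the suffix from here on, and an unnamed cluster led by Colec12. Arterial EC included clusters of 665 and 117 cells whose arterial markers averaged log2 ratios of only 0.444 and 0.322 to the remaining blood EC. Cyp1a1 and Enpp6 were among the leading genes of both, and no arterial marker was. The lowest-scoring capillary EC cluster, of 768 cells, averaged 0.233. The study identified mature Gkn3-positive arterial EC only in its WT cohort. How far the arterial mix differed between libraries was not tested. The Colec12 cluster numbered 31, 456 and 29 cells, so the other blood EC were not the same mix in each library. HEC numbered 472, 111 and 3 cells, so HEC values come from the control and replicate 1 only. All 7 HEC markers were detected in HEC of both libraries, but 6 of 7 were also detected in the other blood EC of the control and 7 of 7 in those of replicate 1. Summed, they stood at 85360 against 1790 CPM in the control and at 25910 against 2457 CPM in replicate 1. The same markers named the cluster, and the name also required Glycam1 above the remaining blood EC, so these levels are no separate check of it. Glycam1, the secreted ligand scaffold of L-selectin, stood at 70810 CPM (its UMIs over all UMIs of those cells, times 1000000) in control HEC against 847.1 in the other control blood EC, and at 13480 against 10.89 in replicate 1. Although sorted as blood endothelium, the libraries held other cells. Fibroblasts numbered 2477, 9 and 6, lymphatic EC 4, 923 and 127, pericytes and smooth muscle 131, 220 and 88, and epithelial cells 28, 152 and 35. Nr2f2 was higher in the EC-iCOUPOE libraries in every EC subset, at 13.53 CPM in control capillary EC against 2006 and 1201 CPM, and at 255.3 CPM in control PCV against 1933 and 1639 CPM. It was also higher in pericytes, at 263.9, 1226 and 625.6 CPM, and in epithelial cells, at 132, 1230 and 403.4 CPM.

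The promoters of 6 members are shown because these genes carry the results below, and because their upstream sequences differ in the elements known to drive respiratory genes. NRF1 and the ETS factor GABP are textbook activators of respiratory subunit genes, and COUP-TFII binds GGTCA elements. Of 80 member symbols, 66 matched the RefSeq promoter table (GRCm38.p6), which spans 250 bases before to 50 bases after each start. Sequences run 5′ to 3′ on the gene's strand, and capitals mark matches to the palindromic element of NRF1 with the fifth base free on either strand, CCGGAAG (ETS), GGTCA or TGACCC, searched on both strands; TGACCC overlaps the reverse of GGTCA. The windows are chr2:36049289-36049588 (minus strand) for Ndufa8, the member of complex I with the highest level, chr4:140961021-140961320 (plus) for Sdhb, the iron-sulphur subunit of complex II, and chr4:116075021-116075320 (minus) for Uqcrh, the hinge protein of complex III. They are chr5:115348909-115349208 (minus) for Cox6a1, the broadly expressed form of complex IV subunit 6a, chr11:96075582-96075881 (minus) for Atp5g1, a gene of the rotor ring of complex V, and chrX:37191189-37191488 (minus) for Ndufa1, a small membrane subunit of complex I.
Ndufa8: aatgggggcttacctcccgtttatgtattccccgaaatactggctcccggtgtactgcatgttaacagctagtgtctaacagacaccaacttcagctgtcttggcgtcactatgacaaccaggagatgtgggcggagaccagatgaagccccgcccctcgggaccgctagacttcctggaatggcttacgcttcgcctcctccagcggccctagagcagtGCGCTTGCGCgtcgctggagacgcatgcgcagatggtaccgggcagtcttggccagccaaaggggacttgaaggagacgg
Sdhb: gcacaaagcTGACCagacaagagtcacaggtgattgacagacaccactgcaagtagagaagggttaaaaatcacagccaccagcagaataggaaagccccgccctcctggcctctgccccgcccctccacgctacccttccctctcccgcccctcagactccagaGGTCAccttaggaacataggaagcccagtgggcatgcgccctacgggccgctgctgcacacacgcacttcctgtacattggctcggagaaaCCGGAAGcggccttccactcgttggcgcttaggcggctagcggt
Uqcrh: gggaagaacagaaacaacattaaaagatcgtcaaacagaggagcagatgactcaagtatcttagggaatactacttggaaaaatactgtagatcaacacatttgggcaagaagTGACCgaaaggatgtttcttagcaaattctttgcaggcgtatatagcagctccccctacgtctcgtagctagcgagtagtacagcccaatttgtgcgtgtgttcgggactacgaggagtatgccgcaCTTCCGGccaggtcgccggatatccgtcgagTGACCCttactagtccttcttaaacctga
Cox6a1: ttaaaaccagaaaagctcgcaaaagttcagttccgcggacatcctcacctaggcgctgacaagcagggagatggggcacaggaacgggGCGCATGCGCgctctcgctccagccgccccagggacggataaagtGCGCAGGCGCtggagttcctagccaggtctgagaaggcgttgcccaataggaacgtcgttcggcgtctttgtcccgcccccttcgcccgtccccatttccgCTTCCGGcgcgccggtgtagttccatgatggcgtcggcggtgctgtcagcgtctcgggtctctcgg
Atp5g1: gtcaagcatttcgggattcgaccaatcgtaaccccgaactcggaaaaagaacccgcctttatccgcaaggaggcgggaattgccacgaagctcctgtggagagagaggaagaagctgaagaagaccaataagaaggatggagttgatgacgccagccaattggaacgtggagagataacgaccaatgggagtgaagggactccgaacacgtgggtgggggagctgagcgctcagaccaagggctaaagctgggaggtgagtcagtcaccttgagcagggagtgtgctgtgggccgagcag
Ndufa1: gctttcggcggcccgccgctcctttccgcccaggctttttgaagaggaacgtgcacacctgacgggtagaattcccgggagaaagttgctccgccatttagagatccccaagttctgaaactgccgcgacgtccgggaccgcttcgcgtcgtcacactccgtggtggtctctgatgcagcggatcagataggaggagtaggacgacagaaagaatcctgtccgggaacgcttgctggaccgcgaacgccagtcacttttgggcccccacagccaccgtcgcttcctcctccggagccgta

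Ndufa8 held 1 NRF1 match, at position −30 from the start, and Cox6a1 held NRF1 matches at −162 and −117 together with an ETS match at −16. Sdhb held GGTCA matches at −241 and −85 and an ETS match, Uqcrh held a GGTCA match upstream, an ETS match at −10 and a TGACCC match (itself holding GGTCA) downstream of the start, and neither Atp5g1 nor Ndufa1 held any of the letters searched. The Ndufa1 window lies wholly upstream of the start of the gene in GENCODE vM21 (37191163, minus strand), so the bases at that start were not searched. Over the 66 member genes, 25.8% held the NRF1 element with the fifth base free against 5.19% of 27025 genes in the table, and 7.58% held it with no base free against 1.07%. CCGGAAG was present in 24.2% of members against 9.93% of genes, and AAGATGGC, the letters of YY1, in 13.6% against 3.19%. TCAAGGTCA, the element of oestrogen-related receptors, was present in 2 members, 3.03% against 0.466%. The COUP-TFII letters GGTCA were present in 51.5% of members and 43.6% of genes, and TGACCC in 15.2% and 15.3%. These shares describe letters in a window and not binding.

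The members were expressed broadly in blood EC. Of 81 entries, 76 had at least 50 UMIs over the 3 libraries, namely 35 of complex I, 4 of complex II, 8 of complex III, 13 of complex IV and 16 of complex V. The entries at 0 UMIs were Cox6a2 (the muscle form of subunit 6a), Cox7b2, Cox8c and the second Atp5o entry, and Cox8b, a muscle form of subunit 8, had 19 UMIs. The 10 highest members made up 30.1% of the summed member level, with CPM averaged over the 3 libraries. Cox6c, an accessory subunit of complex IV, was highest, at 939.6, 1006 and 994.1 CPM in the control, replicate 1 and replicate 2. Atp5j, coupling factor 6 of complex V, followed at 932.7, 994.4 and 858.8 CPM. Uqcrh stood at 721, 650 and 597 CPM, Ndufa8 at 351, 523.6 and 380.9 CPM, and Sdhb at 151.7, 158.2 and 181.3 CPM. The ranges of Cox6c and Atp5j over libraries overlapped, and those of Uqcrh, Ndufa8 and Sdhb did not overlap each other. One 3′ fragment was counted per transcript, so CPM does not scale with transcript length.

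Summed over all members, the level was narrow across EC subsets. It was 24664, 24084 and 24262 CPM in all blood EC of the control, replicate 1 and replicate 2, and the median cell held 2.38%, 2.36% and 2.38% of its UMIs in members. HEC stood at 26421 CPM in the control (95% exact Poisson interval 26249 to 26594) and 25532 CPM in replicate 1 (25194 to 25874). These and all other intervals here cover counting error only. PCV stood at 24020, 23147 and 24271 CPM, capillary EC at 22896, 23269 and 23929 CPM, and arterial EC at 21713, 23390 and 23799 CPM. CRP, the progenitor-like capillary cells, stood at 24847, 25745 and 26457 CPM, and the Colec12 cluster at 27378, 25867 and 25754 CPM. Ordered by their means over libraries, the Colec12 cluster (26333 ± 907 CPM, SD, n = 3), HEC (25976 ± 629, n = 2) and CRP (25683 ± 807, n = 3) did not differ beyond their spread, and neither did PCV (23813 ± 590), capillary EC (23365 ± 523) and arterial EC (22967 ± 1110, n = 3 each). Every value of the first 3 subsets lay above every value of the last 3. Each SD spans the control and EC-iCOUPOE libraries, so it holds any difference between genotypes, and that of HEC lacks replicate 2.

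**Figure D1:**
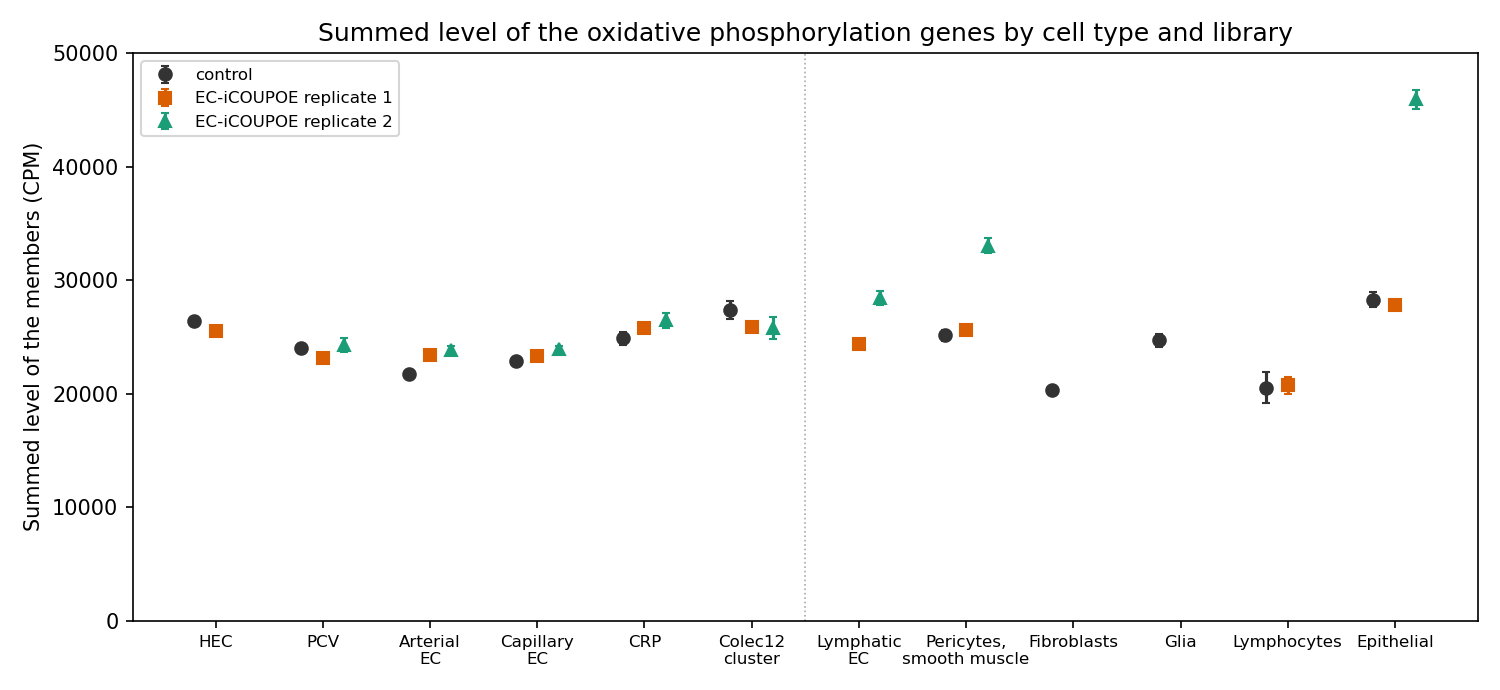
Summed level of the members (CPM) in each cell type and library, with points for libraries and bars for exact Poisson 95% intervals. HEC lie at 26421 and 25532 CPM, whereas capillary EC lie between 22896 and 23929 CPM, and the widest spread over libraries is that of epithelial cells.

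Outside blood endothelium the level varied more. Fibroblasts stood at 20324 CPM and glia at 24678 CPM in the control, and lymphocytes at 20458 and 20711 CPM in the control and replicate 1. Lymphatic EC stood at 24329 and 28424 CPM in replicates 1 and 2. Pericytes and smooth muscle stood at 25120, 25587 and 33025 CPM, and epithelial cells at 28281, 27784 and 45922 CPM, so that replicate 2 was the highest library in both. The median epithelial cell held 2.8%, 2.58% and 3.04% of its UMIs in members. The summed level of replicate 2 lay above the upper quartile of its 35 epithelial cells (3.61%), so it does not describe the typical cell. The share of each complex was similar from subset to subset. In control HEC, complex I summed to 8096 CPM, complex II to 423, complex III to 3213, complex IV to 7005 and complex V to 7685, and in control capillary EC the same sums were 6999, 475, 2756, 6179 and 6488 CPM. By CPM, complex II was thus the one complex with a lower level in control HEC than in control capillary EC. The same held in replicate 1, where complex II summed to 395 CPM in HEC and 450 in capillary EC, and the other complexes were higher in HEC, for example 7682 against 7345 CPM for complex I. Glycam1 took 7.08% of UMIs in control HEC against 0.0539% in control capillary EC. The sums per complex were not rescaled, so the sign of the complex II difference may depend on the scaling.

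The first comparison asked whether HEC differ from the other blood EC of the same library. The members were slightly higher in HEC. The summed level was 26421 CPM in HEC against 23318 CPM in the other EC of the control (log2 ratio 0.18, 0.17 to 0.19), and 25532 against 23978 CPM in replicate 1 (0.09, 0.07 to 0.11). Of 75 members with at least 50 UMIs, 58 were higher in HEC of the control and 50 in replicate 1, with median log2 ratios of 0.18 and 0.09 (mean 0.14 ± 0.06, SD, n = 2). In both libraries 43 were higher, a direction shared by 16.8% of 10656 genes, and 10 were lower, as were 56.9% of genes. The median of all genes was −0.42 and −0.22. With 2 libraries and no replicate of either genotype in this comparison no test was made, and a member was called only by a fixed rule of at least 1.5-fold in each library.

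By that rule 1 member was higher, against 4.62% of all genes, and 0 were lower, against 19.3%. The called member was Ndufa1, on chromosome X (37187588 to 37191163, minus strand, GENCODE vM21 on GRCm38). Ndufa1 stood at 366.9 CPM in HEC and 202.2 CPM in other EC of the control (log2 ratio 0.86, 0.74 to 0.98), and at 360.1 and 220.4 CPM in replicate 1 (0.71, 0.53 to 0.88), a mean of 0.78 ± 0.11 (SD, n = 2). The HEC values of both libraries lay above both values of other EC.

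The other 4 members with the largest increases came from complexes I, III, IV and V. Atp5e, the epsilon subunit in the central stalk of ATP synthase, stood at 704 against 471.1 CPM in the control (0.58) and 671.9 against 532.1 CPM in replicate 1 (0.34). Ndufa3, an accessory subunit of complex I, stood at 272.5 against 199.1 CPM (0.45) and 220 against 174.7 CPM (0.33). Cox7b, a subunit of complex IV, stood at 488.8 against 295.3 CPM (0.73) and 367.1 against 297.6 CPM (0.30). For these members and for Uqcrh, at 814.5 against 649.3 CPM (0.33) and 781.3 against 640.4 CPM (0.29), HEC lay above other EC in both libraries. The 2 members with the highest levels differed less. Cox6c had ratios of 0.11 and −0.12, and Atp5j stood at 948.4 against 920.7 CPM (0.04, −0.02 to 0.11) and 1000 against 994 CPM (0.01, −0.09 to 0.11).

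Of the decreases, that of Ndufa7 exceeded every increase except that of Ndufa1 by the smaller ratio of the libraries. Ndufa7, an accessory subunit of complex I, stood at 249.1 against 333.2 CPM in the control (log2 ratio −0.42, −0.54 to −0.30) and 250.6 against 346.8 CPM in replicate 1 (−0.47, −0.67 to −0.27). Sdha, the flavoprotein that oxidizes succinate, stood at 122.8 against 142.2 CPM (−0.21) and 87.08 against 117 CPM (−0.43). Sdhb stood at 138.3 against 161.9 CPM (−0.23) and 136.5 against 159.7 CPM (−0.23, −0.51 to 0.04). Its partners that anchor complex II in the membrane gave mixed values, with Sdhc at 0.02 and −0.19 and Sdhd at −0.10 and 0.13, and the intervals of all 4 of these ratios included 0. Ndufa6 had ratios of −0.12 and −0.24. By complex, the median log2 ratios in the control and replicate 1 were 0.19 and 0.03 for complex I, −0.15 and −0.21 for complex II, 0.12 and 0.14 for complex III, 0.17 and 0.15 for complex IV, and 0.22 and 0.10 for complex V. No member of complex II was higher in both libraries, and no member of complexes IV and V was lower in both. The sign of these decreases depended on the scaling. With TMM scaling the ratios were 0.19 and −0.07 for Sdhb and 0.20 and −0.27 for Sdha. They were 0.29 and −0.08 for Ndufa6 and −0.00 and −0.31 for Ndufa7, whereas the increases named above stayed above 0. At 2000 to 5000 UMIs Sdhb had −0.12 and 0.27, and Sdha −0.20 and −0.64. Of the increases, Atp5e had 0.73 and −0.03 in that window, so its sign did not hold in replicate 1. Ndufa3 (0.58 and 0.54), Cox7b (0.69 and 0.23) and Uqcrh (0.44 and 0.33) stayed above 0.

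**Figure D2:**
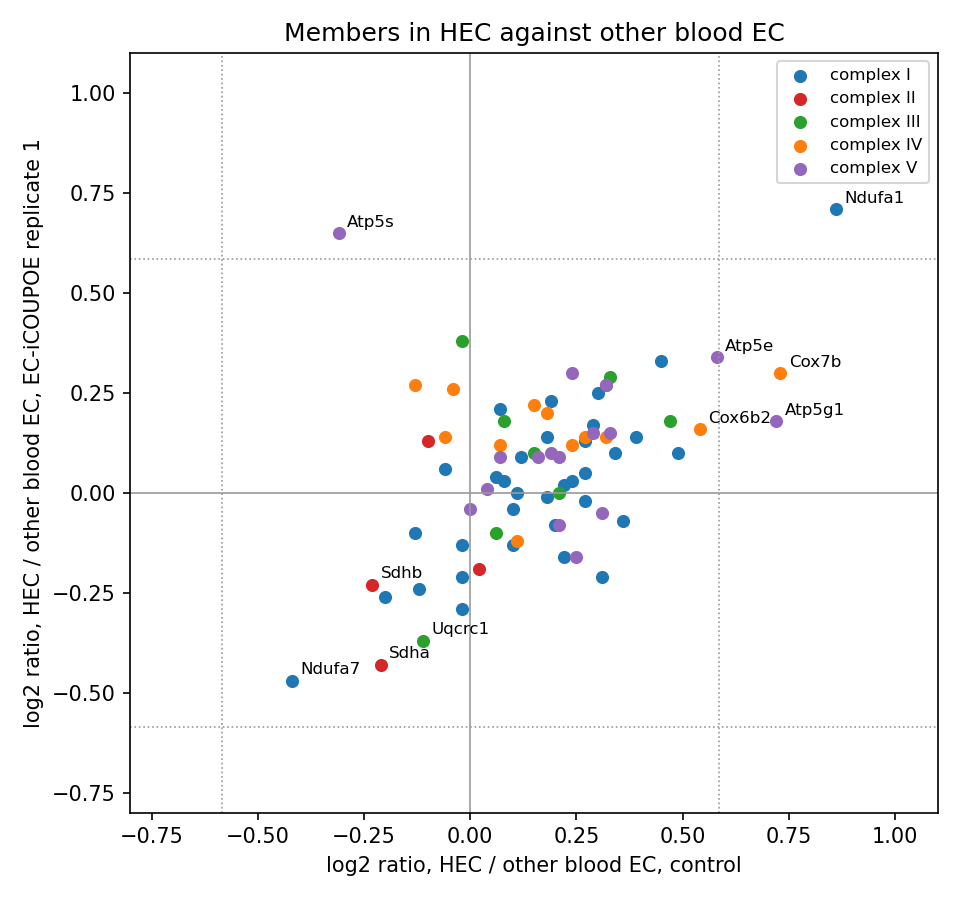
Log2 ratio of HEC to other blood EC for each member, with the control on the x axis and EC-iCOUPOE replicate 1 on the y axis, coloured by complex. By CPM, Ndufa1 lies at 0.86 and 0.71, and Sdha and Sdhb of complex II lie below 0 in both libraries.

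Against PCV, a venous subset, the member medians were 0.15 and 0.16 (mean 0.16 ± 0.01, SD, n = 2), and 54 and 56 of 75 members were higher. All 9137 genes had medians of −0.34 and −0.17. In both libraries 47 members were higher (19.2% of genes) and 12 lower (52.8%). By the rule of 1.5-fold, Ndufa1 was again higher (0.87 and 0.82; 4.89% of genes) and Cox6b2, a form of subunit 6b known from testis, was lower (−1.18 and −1.07; 17.1% of genes). The Cox6b2 value rests on 10 UMIs in HEC and 9 in PCV of the control and on 5 and 40 in replicate 1. The Colec12 cluster against PCV gave medians of 0.21, 0.19 and 0.07, with 0 members called in either direction (2.18% of genes higher and 3.03% lower). By HEC markers this cluster lay nearer to HEC than PCV did. The markers summed to 22900 and 10490 CPM in it against 1226 and 371.9 CPM in PCV of the control and replicate 1. Its summed member level in these libraries was 27378 and 25867 CPM, against 26421 and 25532 CPM in HEC. Member ratios between HEC and this cluster were not made.

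Other lists of the pathway differed in the sign of their medians by CPM. Each of these medians lay above that of all genes (−0.42 and −0.22), of which 16.8% were higher and 56.9% lower in both libraries. The lists were not rescaled, so their signs may depend on the scaling. The 13 subunits encoded in mitochondrial DNA had medians of −0.06 and −0.15 in HEC against other EC, with 2 higher and 9 lower in both libraries. Against PCV their medians were −0.04 and −0.03. In HEC against other EC, the tricarboxylic acid cycle (16 genes tested) had medians of −0.16 and −0.07, glycolysis (16) −0.05 and 0.10, and assembly factors of the complexes (42) −0.06 and −0.15. Mitochondrial ribosomal proteins (77) had 0.07 and −0.01, whereas cytosolic ribosomal proteins had 0.36 and 0.30, with 72 of 83 higher in both libraries. The subunits and carriers that the symbol rule leaves out (5 tested) had 0.17 and 0.01. Among them Cycs, cytochrome c, had ratios of 0.17 and 0.26, Cox4i1 of 0.23 and 0.01, Ndufab1 of 0.37 and −0.04, and Cyc1 of 0.02 and −0.17. The regulators of mitochondrial biogenesis (10 tested) had −0.32 and −0.21, with 2 higher and 5 lower in both libraries. Tfam, which packages mitochondrial DNA, was higher in HEC, with ratios of 0.45 and 0.67 whose intervals did not include 0, and Myc had 0.97 and 0.21. Nrf1, the activator whose letters are shown in the promoters, stood at 12.57 CPM in HEC against 36.05 in other EC of the control (−1.52) and at 15.3 against 24.29 CPM in replicate 1 (−0.67), and Esrra, an oestrogen-related receptor, had ratios of −0.87 and −0.59. Both were lower by at least 1.5-fold in each library, 2 of 10 regulators beside 19.3% of all genes, and neither ratio of replicate 1 excluded 0, with 13 and 8 UMIs in HEC.

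HEC were also the deepest blood EC. The median HEC held 7156.5 UMIs in the control and 6878 in replicate 1, against 2955 and 3672.5 in PCV and 1470 and 2204 in capillary EC. Within PCV of replicate 1 the summed member level itself was 19517 CPM in cells of 1000 to 2000 UMIs, 23144 CPM at 2000 to 5000 and 23196 CPM at 5000 to 10000. This rise was not general. Between the first 2 ranges, control PCV rose from 21852 to 24282 CPM, but control capillary EC fell from 23202 to 22358 CPM. Control arterial EC (22111 to 21532 CPM) and CRP (25080 to 23860 CPM) also fell. Capillary EC rose from 21754 to 23770 CPM in replicate 1 and from 22571 to 24578 CPM in replicate 2. At 2000 to 5000 UMIs, a window chosen after seeing the data, control HEC (90 cells) stood at 26231 CPM against 23185 CPM in other EC (summed log2 ratio 0.18, 0.15 to 0.21). In replicate 1 the 20 HEC of that window stood at 23537 CPM against 23770 CPM (−0.01, −0.08 to 0.05). At 5000 to 10000 UMIs HEC were higher in both, at 26416 against 24275 CPM and 25842 against 24794 CPM, and over 10000 UMIs replicate 1 had 25562 against 25432 CPM. The Colec12 cluster made up 14 of 81 other EC of the control and 197 of 545 of replicate 1 at 5000 to 10000 UMIs. Over 10000 UMIs it made up 32 of 51 in replicate 1. Its own level at 5000 to 10000 UMIs was 27968 and 26396 CPM, and its part in these differences was not tested. Ndufa1 in the lower window had ratios of 0.84 and 0.02, so its call did not hold in the 20 cells of replicate 1. Glycam1 took 7.08% and 1.35% of HEC UMIs, lymphocyte markers (6 and 4 of 7 detected) summed to 54.09 and 44.72 CPM in HEC against 4.254 and 5.965 CPM in other EC, and fibroblast markers (8 and 0 of 8) to 207.9 and 0 CPM against 119.6 and 1.037 CPM. Their part in the HEC values was not tested beyond these values and the rescaling without Glycam1.

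**Figure D3:**
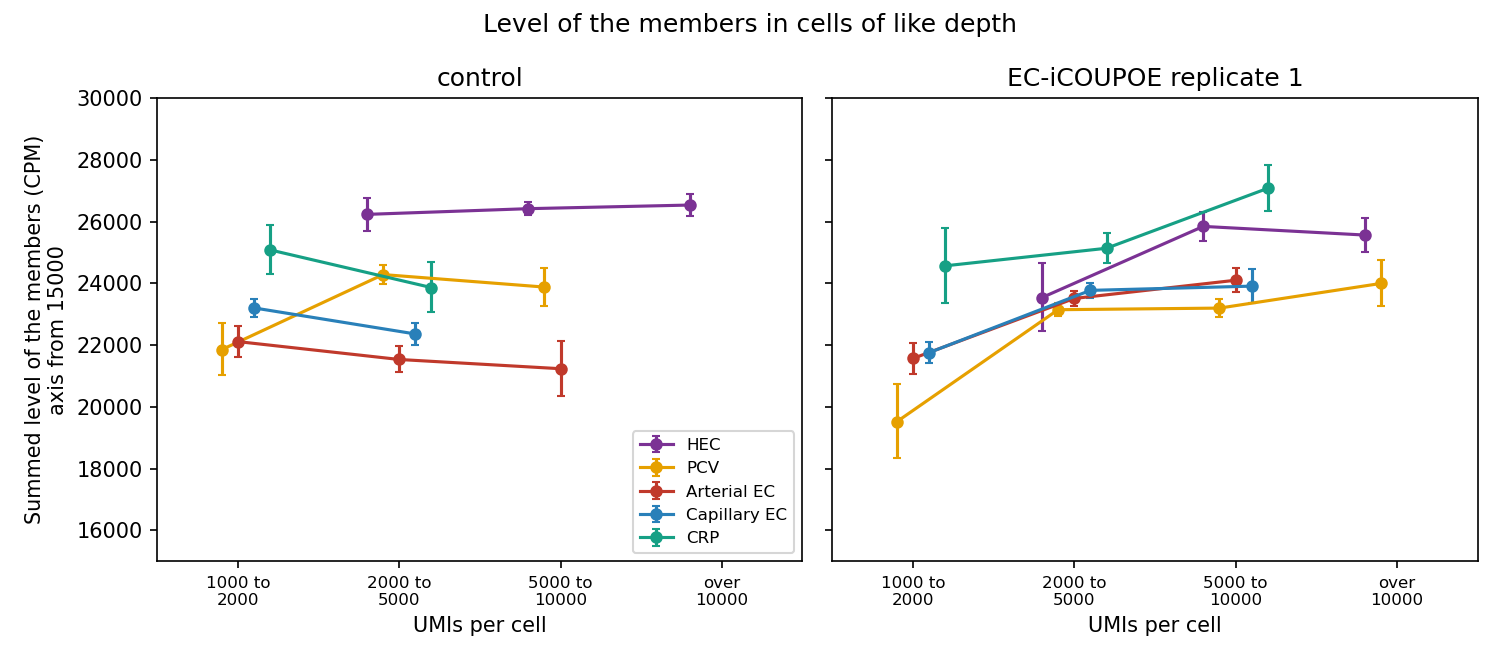
Summed member level (CPM, axis not from 0) by UMIs per cell, for 5 EC subsets of the control and of EC-iCOUPOE replicate 1, with exact Poisson 95% intervals. The Colec12 cluster is not shown. HEC of the control lie above the other subsets shown in each depth range that holds both, and HEC of replicate 1, at 23537 CPM, overlap PCV, arterial and capillary EC and lie below CRP (25134 CPM) at 2000 to 5000 UMIs.

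The second comparison asked what changed with COUP-TFII overexpression within each EC subset. Both EC-iCOUPOE libraries are set against the same single control library, so no test was made and the values are given per library. Fibroblast markers summed to 123.5 CPM in control capillary EC, against 1.16 and 7.188 CPM in replicates 1 and 2. The part of RNA from other cells in the ratios below was not tested. As a group the members hardly moved. In capillary EC the median log2 ratio of 73 members was 0.06 in replicate 1 and 0.04 in replicate 2, beside 0.01 and −0.12 for all 8217 genes. In arterial EC it was 0.10 and 0.09 (all genes −0.01 and −0.17), in CRP 0.08 and 0.09 (−0.01 and −0.08) and in PCV −0.05 and 0.02 (0.04 and −0.17). HEC, with replicate 1 alone, had −0.03 (all genes 0.17). The Colec12 cluster, with 31 control cells, had −0.04 and −0.13. In cells outside blood endothelium the same medians were 0.03 and 0.36 in pericytes and smooth muscle, and −0.02 and 0.63 in epithelial cells. The values of replicate 2 in those cells were larger than any in an EC subset. That of epithelial cells comes from sums over 35 cells, in which cells with many UMIs weigh more.

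By the rule of 1.5-fold in both EC-iCOUPOE libraries, 2 of 73 members were higher in capillary EC (8.39% of all genes) and 0 lower (8.28%). In arterial EC 3 were higher (8.32%) and 0 lower (10.3%), and in PCV 2 were higher (7.32%) and 1 lower (6.86%) of 74. In CRP 0 were called in either direction, against 9.08% of genes higher and 9.62% lower, and in the Colec12 cluster 0 were higher (18.9%) and 1 lower (6.76%), namely Sdhc. In HEC, where the rule rests on replicate 1 alone, 3 were higher (22.4%) and 8 lower (10.8%). In pericytes 3 were higher (6.25%) and 1 lower (8.77%), and in epithelial cells 2 were higher (13.5%) and 0 lower (7.17%). All of these shares of members called lay below the share of all genes, apart from the members lower in HEC, whose share lay close to it. The members lower in HEC of replicate 1 were Cox6a1, Ndufa2, Ndufa6, Ndufb2, Atp5b, Cox7a2l, Uqcrc1 and Sdhc, and those higher were Atp5g1, Ndufb3 and Sdhd.

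**Figure D4:**
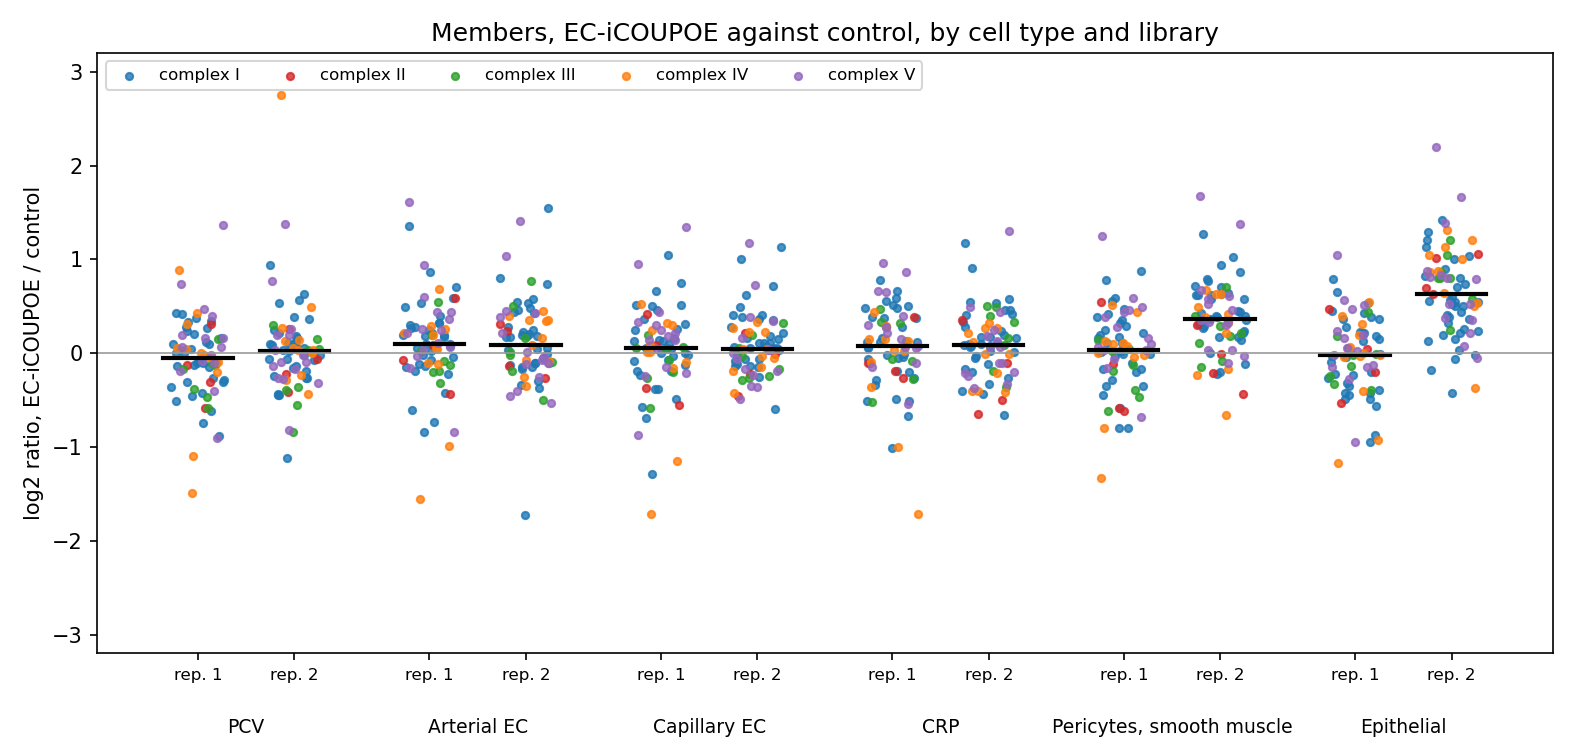
Log2 ratios of the members, EC-iCOUPOE against control, in each cell type and EC-iCOUPOE library, with points for members coloured by complex and bars for medians. The medians of the 4 EC subsets shown lie between −0.05 and 0.10, and those of replicate 2 in pericytes and epithelial cells lie at 0.36 and 0.63.

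Atp5g1 had the largest mean log2 ratio over PCV, arterial EC, capillary EC and CRP (1.22 over 8 ratios). All 8 of its ratios were above 0, as were those of 9 of 73 members (12.3%, beside 9.47% of all genes). It is 1 of 3 genes that encode the same mature c subunit of the ATP synthase rotor ring, and lies on chromosome 11 (96068852 to 96075670, minus strand). In capillary EC it stood at 109.4 CPM in the control, 278.1 CPM in replicate 1 and 246.2 CPM in replicate 2 (log2 ratios 1.35, 1.11 to 1.59, and 1.17, 0.90 to 1.45; mean 1.26 ± 0.12, SD, n = 2). Both EC-iCOUPOE libraries lay well above the control. In arterial EC Atp5g1 stood at 90.76, 276.5 and 241.9 CPM (1.61 and 1.41), and in PCV at 107.7, 277.5 and 280.1 CPM (1.37 and 1.38). In CRP it stood at 192.1, 374.3 and 269 CPM, where the second ratio (0.49, −0.04 to 1.01) included 0. HEC of the control already held 190 CPM, and HEC of replicate 1 held 335.4 CPM (0.82, 0.61 to 1.02). The increase was also present in cells that the Cdh5 promoter is not known to mark, with Atp5g1 at 132, 313.9 and 343.6 CPM in pericytes and smooth muscle (mean 1.32 ± 0.09, SD, n = 2) and at 204, 422.8 and 938.9 CPM in epithelial cells (1.05 and 2.20). Nr2f2 was also higher in those cells, and the part of RNA from other cells in these values was not tested. The paralogues moved less in capillary EC, with Atp5g3 at 158.8, 306.3 and 201.3 CPM (0.95 and 0.34) and Atp5g2 at 388.8, 527.1 and 345.9 CPM (0.44 and −0.17).

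Most of the other increases by the rule in both EC-iCOUPOE libraries were in complex I, the largest complex, with 35 of the 73 members tested in capillary EC. Ndufs8, a core iron-sulphur subunit, stood at 138.8, 220 and 213.8 CPM in capillary EC (0.66 and 0.62). Ndufa8, an accessory subunit, stood at 236.9, 610 and 412.3 CPM in arterial EC (1.36 and 0.80) and at 256.4, 529.8 and 361.2 CPM in capillary EC (1.05 and 0.49), but at 500.3, 498.6 and 366 CPM in PCV, where the control was not below the EC-iCOUPOE libraries. Ndufc2 stood at 245.7, 368.8 and 410.7 CPM in arterial EC (0.59 and 0.74), and at 162.6, 299 and 282.1 CPM in pericytes (0.88 and 0.79). Ndufa12 had ratios of 0.46 and 1.00 in capillary EC, where neither it nor Ndufa8 met the rule. Ndufs7 had ratios of 0.79 and 1.21 in epithelial cells. Outside complex I, Cox6b2 was higher in PCV on 9, 40 and 12 UMIs, and Atp5g3 stood at 212.1, 319.8 and 336.3 CPM in pericytes (0.59 and 0.67).

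Among the decreases, Atp5b, the catalytic beta subunit of ATP synthase, stood at 704.6, 377.8 and 399.6 CPM in PCV (−0.90, −1.02 to −0.78, and −0.82, −1.12 to −0.53), the one member lower by the rule there. In capillary EC Atp5b stood at 803.4, 439.3 and 573.3 CPM (−0.87 and −0.49). In pericytes it stood at 860.1, 536.9 and 1056 CPM, and the EC-iCOUPOE libraries lay on either side of the control. Cox7a2l, counted here in complex IV, stood at 749.3, 337.6 and 554.4 CPM in capillary EC (−1.15 and −0.43) and at 532.6, 305 and 336.3 CPM in pericytes (−0.80 and −0.66). In capillary EC Sdha had ratios of −0.37 and −0.46 and Uqcrc1, a core subunit of complex III, of −0.58 and −0.27. In the same cells Sdhc had −0.55 and −0.22, Sdhb 0.09 and 0.22, and Sdhd 0.42 and −0.01.

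Some members differed more between the EC-iCOUPOE libraries than from the control. Cox6a1 stood at 628.7 CPM in control capillary EC, 190.3 CPM in replicate 1 and 735 CPM in replicate 2 (−1.72 and 0.23). In pericytes it stood at 617.4, 244.8 and 958.3 CPM, and in epithelial cells at 568.1, 252.2 and 1316 CPM, so replicate 1 was the low library in each. Ndufa6 stood at 405.2, 165.9 and 468.1 CPM in capillary EC (−1.29 and 0.21). Ndufa4 stood at 701.7, 1004 and 685.6 CPM. Cox4i1, outside the members, stood at 1176, 657 and 1008 CPM, and here both EC-iCOUPOE libraries lay below the control. The table of replicate 1 lists 31053 genes and those of the control and replicate 2 list 31055. Replicate 1 also shared no barcode with either, whereas those libraries shared 12. The part of such library differences in the ratios of replicate 1 to the control was not tested. The other forms of complex IV subunits in capillary EC were close to the control, with Cox6b1 at 0.01 and 0.04, Cox7a2 at −0.16 and 0.04 and Cox8a at −0.09 and −0.19, and Cox7a1 had only 6, 4 and 2 UMIs. Several subunits have processed pseudogenes of near-identical sequence, and reads could have been lost or split between the copies.

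**Figure D5:**
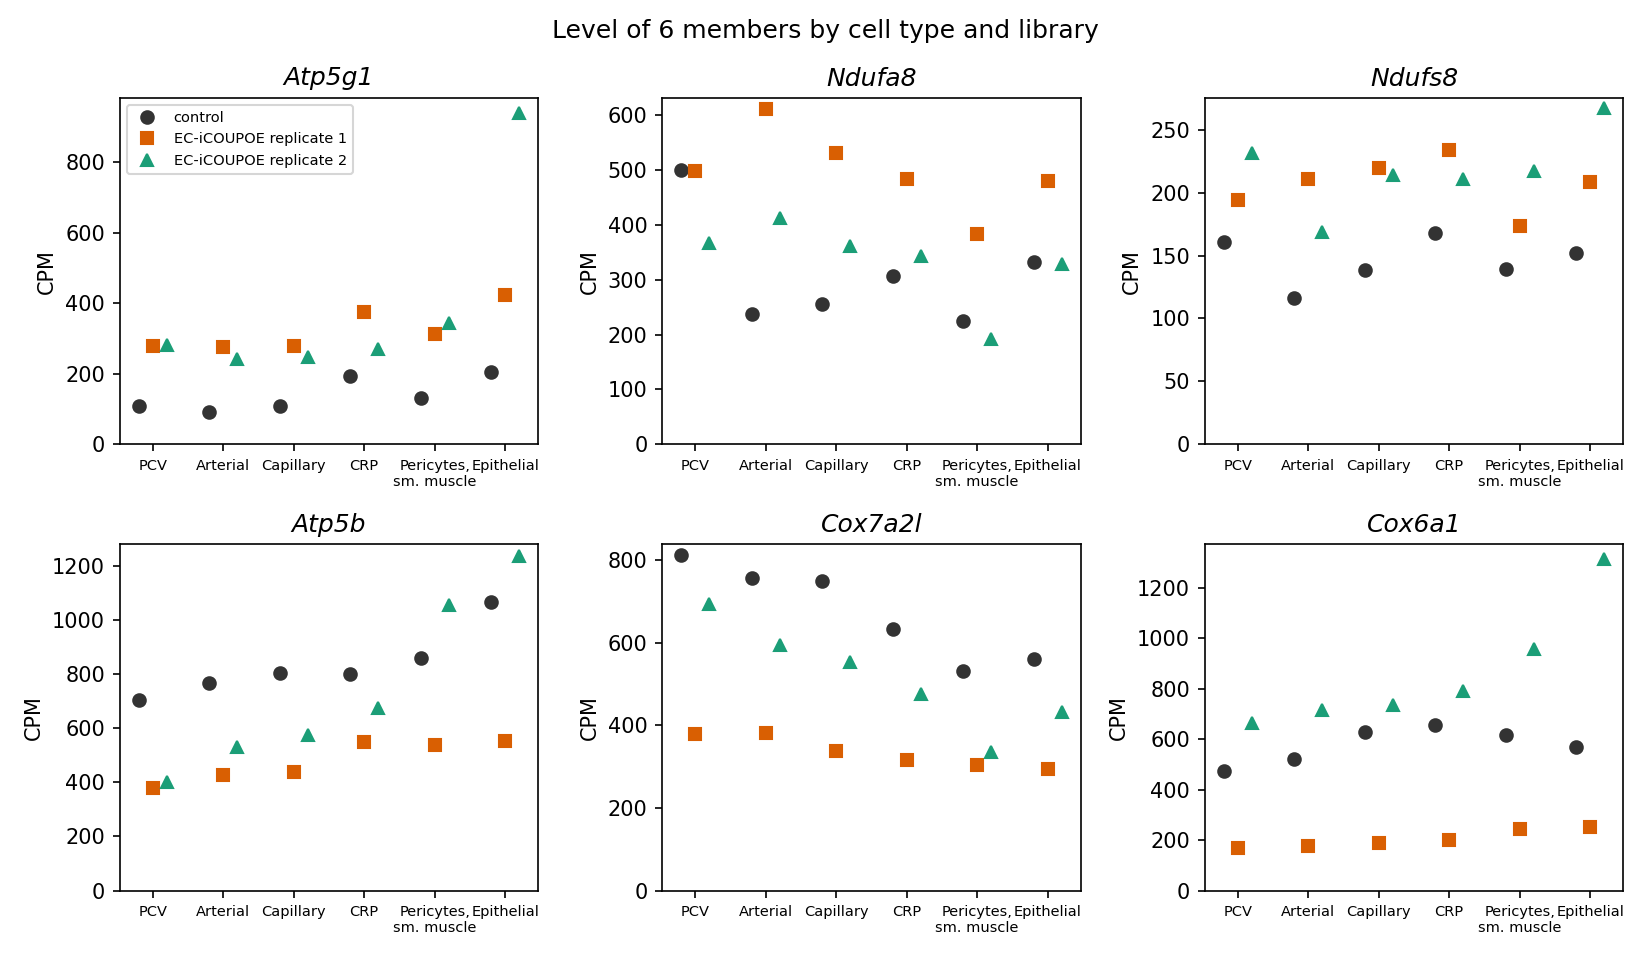
CPM of 6 members in EC subsets, pericytes with smooth muscle, and epithelial cells, with 1 point per library and no error bars. Atp5g1 is higher in both EC-iCOUPOE libraries than in the control in each cell type shown, whereas Cox6a1 is below the control in replicate 1 only.

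By their medians, the mitochondrially encoded subunits split the EC-iCOUPOE libraries, but single genes did not all follow. Their median log2 ratios against control were 0.58 and −0.09 in capillary EC, 0.59 and −0.14 in arterial EC, 0.66 and −0.07 in CRP and 0.63 and −0.40 in PCV, higher in replicate 1 and lower in replicate 2. In pericytes they were 0.62 and 0.59. By gene, 6 of these 13 subunits were higher in both libraries in capillary EC, 3 were lower in both and 4 were mixed. By the rule of 1.5-fold, 2 of them were higher there and 0 lower. The medians of the nuclear members in capillary EC, 0.06 and 0.04, did not split in this way. By gene, 28 of 73 nuclear members were higher in both libraries there, 14 were lower in both and 31 were mixed. The glycolysis list (15 tested) had 0.07 and −0.16 in capillary EC with 3 genes higher by the rule and 0 lower (all genes 8.39% and 8.28%), the tricarboxylic acid cycle (16) had −0.10 and −0.11 with 1 and 0, and assembly factors (38) had 0.11 and −0.14 with 2 and 1. Cytosolic ribosomal proteins (83) had −0.14 and −0.18, with 3 higher and 7 lower. Apart from glycolysis and the mitochondrially encoded subunits among the genes higher, the called shares of these lists lay below or close to those of all genes. Of 9 regulators tested, 1 was higher by the rule and 0 lower. It was Myc, an inducer of mitochondrial genes, at 10, 36 and 41 UMIs (1.24 and 2.65), whereas Yy1 had −0.29 and −0.88. Ppargc1a, the coactivator PGC-1α, had 0, 1 and 0 UMIs, so no change in it was detectable at this depth.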

How the data were processed

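Gene expression was measured in 3 single-cell libraries of PP EC. Per the labels, the authors counted UMIs per gene and barcode with Cell Ranger 3.0.2 against mm10, and the deposited values are raw counts without scaling. Labels gave the groups (1 control, 2 EC-iCOUPOE). The labels name both the v3 platform and the v2 kit, so the chemistry of each library is not clear. Barcodes needed a minimum of 500 genes and 1000 UMIs, and a mitochondrial share of no more than 10%. This left 5329, 4707 and 1238 cells after Scrublet in scanpy 1.11.5 (expected rate 6%) removed 144, 43 and 5 doublets. Scrublet marked a small share in replicate 2, and doublets may remain.

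Integration and Louvain clustering (resolution 1, seed 1) used Seurat 5.3.0 (R 4.3.3) on 2000 variable genes with 30 components and 20 neighbours. A cluster took the name of the list whose markers had the highest mean log2 ratio to all other cells, with 10 CPM added and at least 3 markers detected. UMIs were summed per cell type and library in Python 3.11.15 (pandas 2.3.3, scipy 1.17.1, numpy 2.4.6) and divided by all UMIs of those cells (CPM). Genes with at least 50 UMIs over the cells compared, in libraries with at least 10 such cells, were tested by fold. Ratios have exact conditional and levels exact Poisson 95% intervals. The steps were tested on simulated data. Figures were drawn with matplotlib 3.10.9.

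Members and lists were chosen with earlier results of these data known. Named were the highest member of each complex, the 5 largest increases and decreases in HEC and in EC-iCOUPOE capillary EC by the smaller ratio of the libraries, preset paralogues, Sdha to Sdhd, Ndufa4, entries at 0 UMIs and preset regulators. Cox6a1, Ndufa6 and the members passing the fold rule in other cells were named after their values were seen. One gene that the rule names is not reported here. Other scalings (edgeR 4.0.16 TMM), filters, resolutions and fold rules were tried.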

Additional observations from a re-analysis of the deposited data

How the results depend on the processing

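With 1 control library and 2 HEC libraries, these values have no replicate test, and a shift was counted when it exceeded the SD between libraries (0.05 for HEC and 0.03 for EC-iCOUPOE medians, 0.37 for the same outside blood EC, 760 CPM for levels) or 1.5 times for a count. No paired analysis of EC-iCOUPOE against control was possible, with 1 control library whose label carries no replicate number. HEC were compared with other EC of the same library. The alternatives without dividing EC and without members with -ps copies were not run, since there was no dividing cluster and no such symbol. For the counts, a looser fold rule cannot lower the value and a stricter one cannot raise it. With a library left out the fold is needed in fewer libraries, so the direction of that shift was also largely set in advance. Resolution 0.6 moved 0 of 24 results. The median in pericytes (0.19) lay between 0.14 and 0.29 over the other alternatives and that in epithelial cells (0.31) between 0.06 and 0.32, but without replicate 2 they were 0.03 and −0.02 and without replicate 1 0.36 and 0.64, so both rest on replicate 2.

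The median of HEC against other EC (0.14) became 0.43 with TMM, 0.23 without mitochondrial and ribosomal genes, 0.09 at up to 5% mitochondrial UMIs, 0.20 without Glycam1 and 0.03 at 2000 to 5000 UMIs, the last 2 chosen after seeing the data, and lay between 0.09 and 0.18 with 1 library left out. TMM also moved the median of all genes in this comparison from −0.42 and −0.22 to −0.01 and −0.06. The median against PCV (0.16) became 0.39, 0.22, 0.22 and 0.08 with TMM, without those genes, without Glycam1 and at 2000 to 5000 UMIs. The count higher in HEC (1) became 2 after thinning to 1000 UMIs, 0 with a fold rule of 2, 3 with a looser rule midway between no change and 1.5-fold, 0 at 2000 to 5000 UMIs and 2 to 3 with a library left out. The count lower (0) became 1 with the looser rule and 1 at 2000 to 5000 UMIs.

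For EC-iCOUPOE, TMM gave medians of 0.02 in PCV, 0.16 in arterial EC, 0.08 in capillary EC, 0.13 in CRP and −0.30 in HEC. Without mitochondrial and ribosomal genes PCV gave −0.05 and HEC −0.08. Resolution 1.6 gave 0.13 in arterial EC, 0.01 in capillary EC and −0.01 in CRP. No doublet removal gave 0.00 in capillary EC and 0.15 in CRP. A limit of 5% mitochondrial UMIs gave 0.13 in arterial EC, −0.04 in capillary EC and 0.13 in CRP, and 20% gave 0.14 in CRP. Equal cell weight gave 0.04 in CRP and −0.06 in HEC, and thinning gave 0.01 in capillary EC, 0.02 in CRP and −0.10 in HEC. At 2000 to 5000 UMIs the medians were −0.06 in PCV, 0.14 in arterial EC, 0.11 in capillary EC, 0.13 in CRP and −0.13 in HEC. With a replicate left out PCV gave −0.07 to 0.02 and arterial EC 0.10 to 0.13, and the sign in PCV, capillary EC and CRP therefore depends on the setting.

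Counts of members higher became, in PCV (2), 1 with a filter of 200 UMIs, 1 at 2-fold, 1 at 2000 to 5000 UMIs and up to 4 with a replicate left out. In arterial EC (3) they became 1 at 2-fold, 8 with the looser rule and 6 to 9 with a replicate left out. In capillary EC (2) they became 1 at resolution 1.6, without doublet removal, at 20% mitochondrial UMIs, after thinning and at 2-fold, 8 with the looser rule, 4 at 2000 to 5000 UMIs and 5 to 6 with a replicate left out. In CRP (0) they became 1 with TMM, without mitochondrial and ribosomal genes, at 20% mitochondrial UMIs, with equal weight, after thinning and at 2000 to 5000 UMIs, 4 at resolution 1.6, 3 without doublet removal, 8 with the looser rule and 3 to 7 with a replicate left out. Counts lower became, in PCV (1), 3 after thinning, 0 at 2-fold, 5 with the looser rule, 2 at 2000 to 5000 UMIs and 2 to 8 with a replicate left out. In arterial EC (0) they became 2 with the looser rule, 1 at 2000 to 5000 UMIs and up to 6 with a replicate left out. In capillary EC (0) they became 1 with a filter of 10 UMIs, 1 at 5% mitochondrial UMIs, 4 with the looser rule and 1 to 5 with a replicate left out. In CRP (0) they became 1 at resolution 1.6, 1 at 5% mitochondrial UMIs, 2 with the looser rule and 1 to 4 with a replicate left out. Levels without mitochondrial and ribosomal genes were 34999 CPM in HEC, 30628 in PCV, 28879 in arterial EC, 29122 in capillary EC and 31858 in CRP, and 27375 in CRP at resolution 1.6. Causes of these shifts were not tested.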
